A study of Homo sapiens with 52 samples.

Results

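The 10 genes described here encode proteins of the interleukin-1 (IL-1) family pathway: the ligands IL1A, IL1B, IL33 and IL18, the receptor chains IL1R1, IL1RAP and IL1RL1, the adaptor MYD88 and the kinases IRAK1 and IRAK2. They were taken by name from the 43290 gene symbols of the table, and all 10 have values in every library. The IL-1 family ligands are cytokines that are released or matured mainly on cell stress or inflammasome activation. IL1A and IL1B encode IL-1α and IL-1β, which bind IL1R1. IL-33 binds IL1RL1 (also called ST2), and both receptors need the shared chain IL1RAP to signal. The assembled receptors recruit MYD88, which brings in the IRAK kinases and leads to NF-κB and MAP kinase activation. In endothelium this pathway is known for inducing adhesion molecules, chemokines and cytokines.

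Poly-A RNA-seq was measured in TPM (a length-corrected share of the library) in 52 libraries of 2 human endothelial lines. TeloHAEC are endothelial cells of the aorta made immortal by telomerase. Eahy926 is a fusion line of umbilical vein endothelium with lung carcinoma cells. Parental TeloHAEC were untreated, given IL-1β or TNF-α at 10 ng/ml for 24 h, or kept in medium without VEGF for 24 h. The titles of the last group read VEGF, while its treatment labels read growth media lacking VEGF, and the treatment labels were followed. Parental Eahy926 were untreated, given IL-1β or TNF-α at the same dose and time, or given VEGF for 24 h. Each of these 8 groups held 3 libraries. The other 24 libraries were TeloHAEC of a line that carries doxycycline-inducible KRAB-dCas9-BFP (CRISPR interference, CRISPRi). All of these cells, controls included, were transduced with a guide vector, selected for blasticidin resistance and given doxycycline at 2 µg/ml for 5 days. They held 2 guides against each of 10 target genes or 1 of 4 non-targeting guides, and the pair of guides to a target served as replicates. Nothing in the labels ties the libraries of a group to separate cultures, and p-values therefore measure only the spread between these libraries. A gene is said to have risen, fallen or passed where its limma p, adjusted by Benjamini-Hochberg over all genes of the fit, was under 0.05, and differences are in log2 units of TPM + 1.

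Endothelial identity was checked against 12 markers, of which 12 reached 1 TPM in TeloHAEC and 10 in Eahy926, where EMCN and CLDN5 were listed at 0. In untreated cells they summed to 4381 to 4622 TPM in TeloHAEC and 1577 to 1998 TPM in Eahy926. The epithelial list summed to 2047 to 2134 and 4095 to 4157 TPM, with EPCAM and KRT5 above 1 TPM in Eahy926, and its part in differences between the lines was not tested. Of 12 leukocyte markers 3 reached 1 TPM in each parental line: FCER1G, CD68 and LAPTM5 in TeloHAEC, and LYZ, CD68 and LAPTM5 in Eahy926. TYROBP and CD3E were listed at 0 in every parental library. For each line another 2 untreated libraries carry the numbers 0.1 and 0.2. They entered no group, and they stood apart for several of the 10 genes in TeloHAEC. There IL33 was 18.6 and 15.4 TPM in them against 1.94, 2.32 and 2.00 TPM in the untreated libraries used. IL18 was 5.30 and 5.35 against 0.866, 0.621 and 1.56 TPM, and IL1R1 was 39.8 and 39.3 against 23.3, 25.2 and 21.7 TPM. In 18 of 20 knockdown libraries the target was below all 4 non-targeting libraries, at 2.58 to 40.9% of their mean. MAP2K5 (105%) and NFAT5 (97.1%) were not reduced with 1 guide each.

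In TeloHAEC, IL1A, IL1B and IRAK2 rose with both cytokines and IL1RL1 rose in medium without VEGF, so the bases before their start sites are shown. The windows are 250 bases before a RefSeq transcription start on GRCh38.p14, 5′ to 3′ on the gene's strand. Of the 10 genes 9, all but IL18, had such a window, with 15 windows in all. Capitals mark matches, on either strand, to the AP-1 motif TGANTCA, the STAT motif TTCNNNGAA or the TATA box TATAAA. IL1A lies at chr2:112784494-112784743 (minus strand), IL1B at chr2:112836780-112837029 (minus strand), IRAK2 at chr3:10164669-10164918 (plus strand) and IL1RL1 at chr2:102337007-102337256 (plus strand).
IL1A: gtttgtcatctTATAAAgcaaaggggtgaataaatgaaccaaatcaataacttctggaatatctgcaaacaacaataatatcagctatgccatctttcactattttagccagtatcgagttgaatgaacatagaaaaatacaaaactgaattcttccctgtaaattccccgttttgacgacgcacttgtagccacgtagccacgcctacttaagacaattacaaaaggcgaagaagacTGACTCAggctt
IL1B: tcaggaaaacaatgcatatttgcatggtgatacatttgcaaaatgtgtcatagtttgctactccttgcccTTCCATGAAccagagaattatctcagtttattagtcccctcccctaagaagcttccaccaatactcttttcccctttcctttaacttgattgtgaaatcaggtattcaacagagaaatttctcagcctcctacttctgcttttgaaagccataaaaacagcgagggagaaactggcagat
IRAK2: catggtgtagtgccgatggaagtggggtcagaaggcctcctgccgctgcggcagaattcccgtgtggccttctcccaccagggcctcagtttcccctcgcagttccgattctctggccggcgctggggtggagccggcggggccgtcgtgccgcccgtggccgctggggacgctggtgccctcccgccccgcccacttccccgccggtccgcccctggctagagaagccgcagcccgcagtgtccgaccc
IL1RL1: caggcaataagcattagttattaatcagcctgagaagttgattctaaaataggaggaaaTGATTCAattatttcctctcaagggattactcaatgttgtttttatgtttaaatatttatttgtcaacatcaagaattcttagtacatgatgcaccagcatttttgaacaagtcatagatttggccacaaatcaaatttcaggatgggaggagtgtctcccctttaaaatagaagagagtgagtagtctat
The IL1A window held an AP-1 match that begins 12 bases before the start, and the IL1RL1 window one that begins 191 bases before it. The IL1A window also held a TATA box match that begins 239 bases before the start, and the IL1B window a STAT match that begins 180 bases before it. IL1A has a further window that overlaps the one shown and adds 1 AP-1 match, and the further window of IL1RL1 held a TATA box match. AP-1 matches were in 3 of the 15 windows and in 6.59% of all 34943 windows of this length. A STAT match was in 3 of the 15 windows (IL1B, IL1R1 and MYD88) and in 6.56% of all windows. A TATA box match was in 3 of the 15 (IL1A, IL1R1 and IL1RL1) and in 10.8% of all windows. The NF-κB consensus, searched on both strands, was in 1 of the 15 windows, that of IRAK1, and in 9.95% of all windows. The IRAK2 window held none of these letters. IL1A and IL1B lie on chromosome 2, as do IL1R1 and IL1RL1.

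Untreated cells of the lines differed most in IL1R1, IL18 and IL33. IL1R1, the receptor that binds IL-1α and IL-1β, stood at 23.3, 25.2 and 21.7 TPM in TeloHAEC and at 0.0823, 0.0260 and 0 TPM in Eahy926. It was listed at 0 in all 9 treated Eahy926 libraries, so the receptor transcript was close to absent from that line under every condition measured. The difference was 4.56 ± 0.0745 log2 units (SE, n = 3 per line, adjusted p = 5.82e-23). In bulk RNA, fewer cells with a transcript and less of it per cell cannot be told apart. IL18 went the other way, at 0.866, 0.621 and 1.56 TPM in TeloHAEC and 92.2, 119 and 109 TPM in Eahy926 (-5.76 log2 units, adjusted p = 5.31e-19). IL33, an alarmin stored in the nucleus, was listed at 0 in the untreated Eahy926 libraries and at 1.94 to 2.32 TPM in those of TeloHAEC (adjusted p = 1.12e-09).

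The other ligands and the ST2 receptor were also lower in TeloHAEC at rest. IL1A averaged 0.450 ± 0.324 TPM in TeloHAEC and 2.94 ± 0.158 TPM in Eahy926 (SD, n = 3), and IL1B averaged 0.636 ± 0.375 and 2.50 ± 1.38 TPM. The Eahy926 libraries 0.1 and 0.2, outside these groups, held 0.418 and 0.375 TPM of IL1B. Those values lie within the TeloHAEC range of 0.221 to 0.951 TPM. IL1RL1 averaged 2.39 ± 0.326 and 7.84 ± 2.60 TPM, and IRAK2 averaged 8.69 ± 0.308 and 26.1 ± 6.88 TPM. IL1RAP was the exception among these, at 8.13 ± 0.579 TPM in TeloHAEC and 4.86 ± 0.665 TPM in Eahy926. MYD88 and IRAK1, the most abundant of the 10 genes in untreated TeloHAEC, were close in both lines. MYD88 averaged 71.2 and 64.3 TPM (adjusted p = 0.0647, and 0.00496 with the median of ratios), and IRAK1 averaged 208 and 228 TPM, with overlapping libraries and an adjusted p of 0.0476; that call was lost when any of 4 of the 6 libraries was left out (adjusted p up to 0.234, without the third Eahy926 library). Of the 10 genes 9 passed this comparison, 3 higher and 6 lower in TeloHAEC, where 76.2% of all genes tested passed. The median size of the difference was 1.39 log2 units over the 10 genes and 0.52 over all genes.

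**Figure D1:**
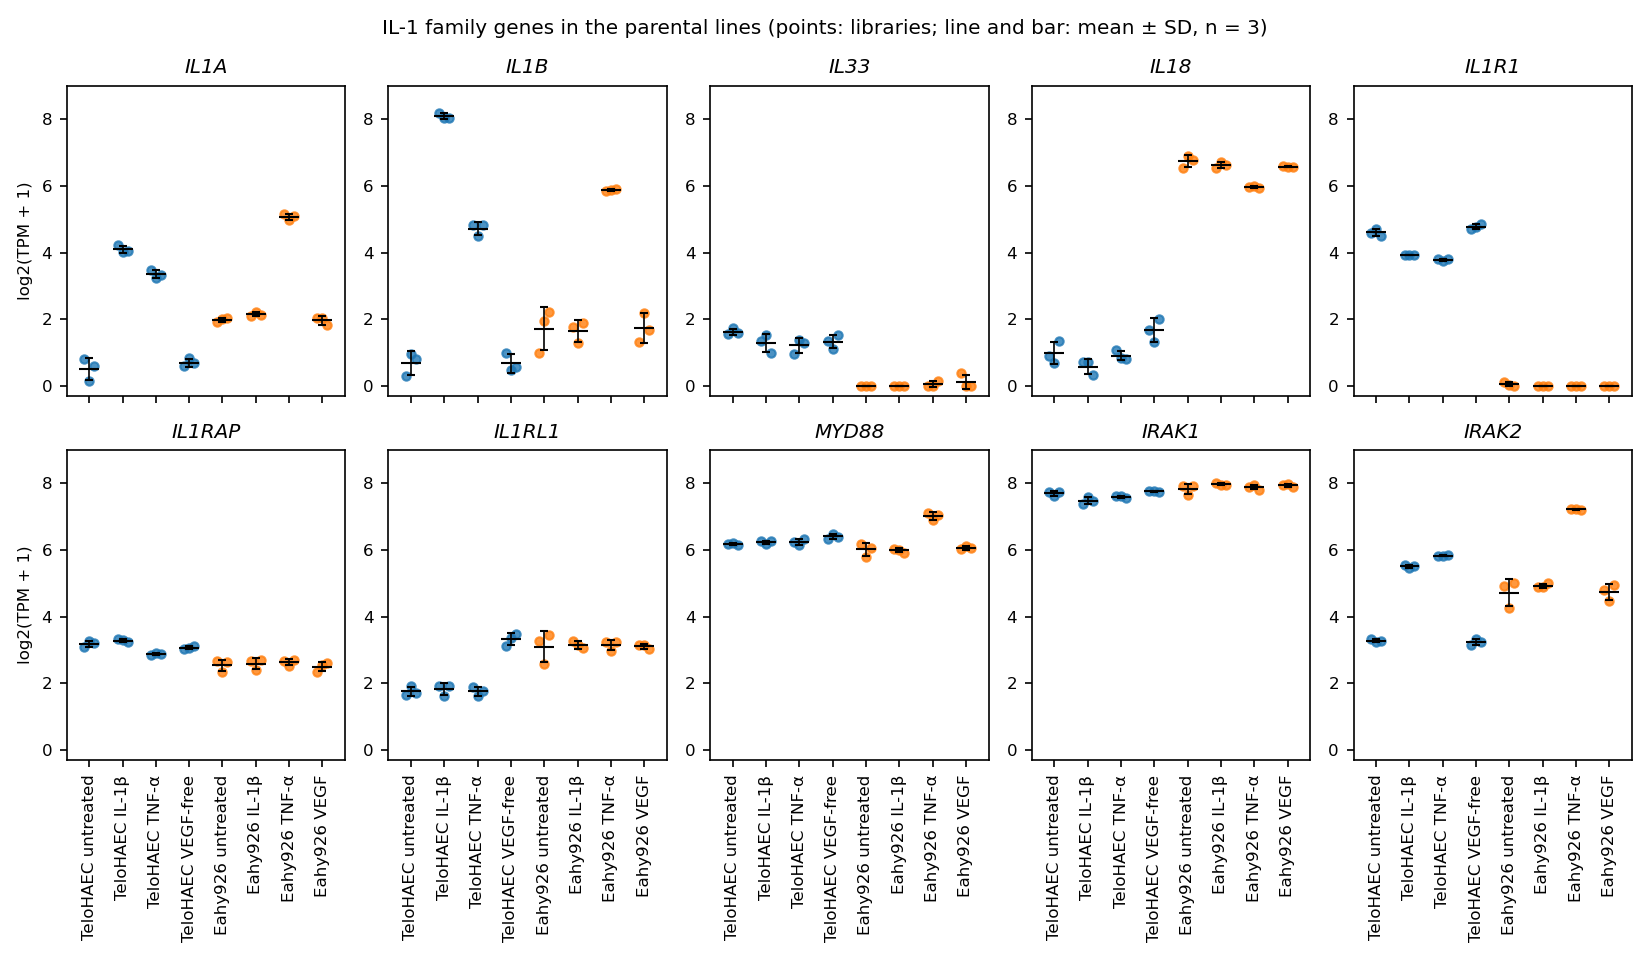
Level of each gene in the 8 parental groups as log2(TPM + 1), with TeloHAEC in blue and Eahy926 in orange; points are libraries, and lines with bars are mean ± SD (n = 3). IL1A, IL1B and IRAK2 stand high with IL-1β and TNF-α in TeloHAEC and with TNF-α but not IL-1β in Eahy926, where IL1R1 lies at 0 to 0.0823 TPM.

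In TeloHAEC, 24 h of IL-1β raised both IL-1 ligands and the kinase IRAK2, and lowered the receptor IL1R1. IL1B, whose protein is the cytokine that was added, reached 291, 264 and 260 TPM against 0.221, 0.951 and 0.736 TPM untreated. IL1A reached 17.6, 15.3 and 15.5 TPM against 0.734, 0.0972 and 0.517 TPM. IRAK2, which acts downstream of MYD88, reached 45.7, 42.7 and 45.3 TPM against 9.02, 8.42 and 8.62 TPM. In each of these genes every treated library lay above every untreated one. The differences were 7.41 ± 0.255 for IL1B (adjusted p = 8.57e-16), 3.58 ± 0.124 for IL1A (9.33e-16) and 2.23 ± 0.129 for IRAK2 (7.39e-12), in log2 units with SE.

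IL1R1 fell by 0.68 log2 units (SE 0.0745, adjusted p = 2.46e-07), from 23.3, 25.2 and 21.7 TPM to 14.2, 14.2 and 14.3 TPM with no overlap. IRAK1, the kinase that MYD88 recruits with IRAK4, fell by 0.22 log2 units (adjusted p = 0.00597), from a mean of 208 to 179 TPM. With the libraries 0.1 and 0.2 added to the controls IRAK1 did not pass (adjusted p = 0.107), while IL1R1 fell by 0.97. Of the 10 genes 5 passed, 3 higher and 2 lower, where 31.1% of all genes passed, with a median size of 0.37 log2 units against 0.15 over all genes. IL33 and IL18 had means of 1.48 and 0.505 TPM against 2.09 and 1.02 TPM, with adjusted p of 0.0938 and 0.0531. With all 5 controls, of which the 2 added libraries were the highest, both passed (differences of -1.34 and -1.08, adjusted p = 0.0228 and 0.0128). IL1RAP, IL1RL1 and MYD88 had differences of 0.09, 0.06 and 0.06 log2 units, and none passed.

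Markers of other cell types were read beside these values. The leukocyte list summed to 350 to 367 TPM with IL-1β and 361 to 380 TPM untreated. FCER1G, CD68 and LAPTM5 of that list reached 1 TPM, and PTPRC was under 1 TPM. The epithelial list, of which KRT7, KRT8, KRT18 and KRT19 reached 1 TPM, summed to 1061 to 1100 TPM with IL-1β and 2047 to 2134 TPM untreated. With TNF-α it summed to 1483 to 1572 TPM. Its part in the results with either cytokine was not tested.

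TNF-α also raised both IL-1 ligands and IRAK2 in TeloHAEC; the comparisons of a line share its untreated libraries. IL1B reached 27.5, 21.6 and 27.2 TPM, IL1A 10.1, 8.47 and 9.13 TPM, and IRAK2 55.8, 55.2 and 56.4 TPM, all above the untreated libraries. The differences were 4.03 ± 0.255, 2.84 ± 0.124 and 2.55 ± 0.129 log2 units (adjusted p = 5.46e-11, 8.23e-14 and 9.59e-13). IL1R1 fell by 0.83 (adjusted p = 1.91e-08), to 13.0, 12.4 and 12.9 TPM, again below every untreated library. IL1RAP, the shared receptor chain, fell by 0.30 (adjusted p = 0.0303), from 7.52, 8.68 and 8.20 to 6.24, 6.48 and 6.44 TPM. That call was lost when any of 5 of the 6 libraries was left out, with an adjusted p of up to 0.124 without the second untreated library. IRAK1 averaged 194 against 208 TPM and MYD88 75.1 against 71.2 TPM, and neither passed. Of the 10 genes 5 passed, 3 higher and 2 lower, where 18.2% of all genes passed, with a median size of 0.36 against 0.11. IL33 averaged 1.33 against 2.09 TPM (adjusted p = 0.0540).

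Set directly against TNF-α in TeloHAEC, IL-1β left more of both IL-1 transcripts. IL1B was 10.7 times as high with IL-1β (3.37 ± 0.255 log2 units, adjusted p = 3.55e-09) and IL1A 1.75 times as high (0.74 ± 0.124, adjusted p = 0.000249). The IL1A difference was 0.80 with a pseudocount of 0.1 and did not pass there (adjusted p = 0.108). IL1RAP was also higher, at 9.0, 8.82 and 8.41 TPM with IL-1β and 6.24, 6.48 and 6.44 TPM with TNF-α (0.40 ± 0.0968, adjusted p = 0.00738). IRAK2 was 44.6 TPM with IL-1β and 55.8 TPM with TNF-α, which did not pass (adjusted p = 0.121, and 0.00603 with only the groups compared). These 3 of 10 genes compare with 12.7% of all genes. The balance of the IL-1 transcripts differed as well: the IL1B to IL1A ratio within a library, on the length-corrected TPM scale, was 16.9 ± 0.400 with IL-1β and 2.75 ± 0.212 with TNF-α (SD, n = 3). IRAK2 remained scarcer than IRAK1 throughout, at a ratio of 0.0418 ± 0.00143 untreated, 0.251 ± 0.0264 with IL-1β and 0.288 ± 0.00950 with TNF-α.

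**Figure D2:**
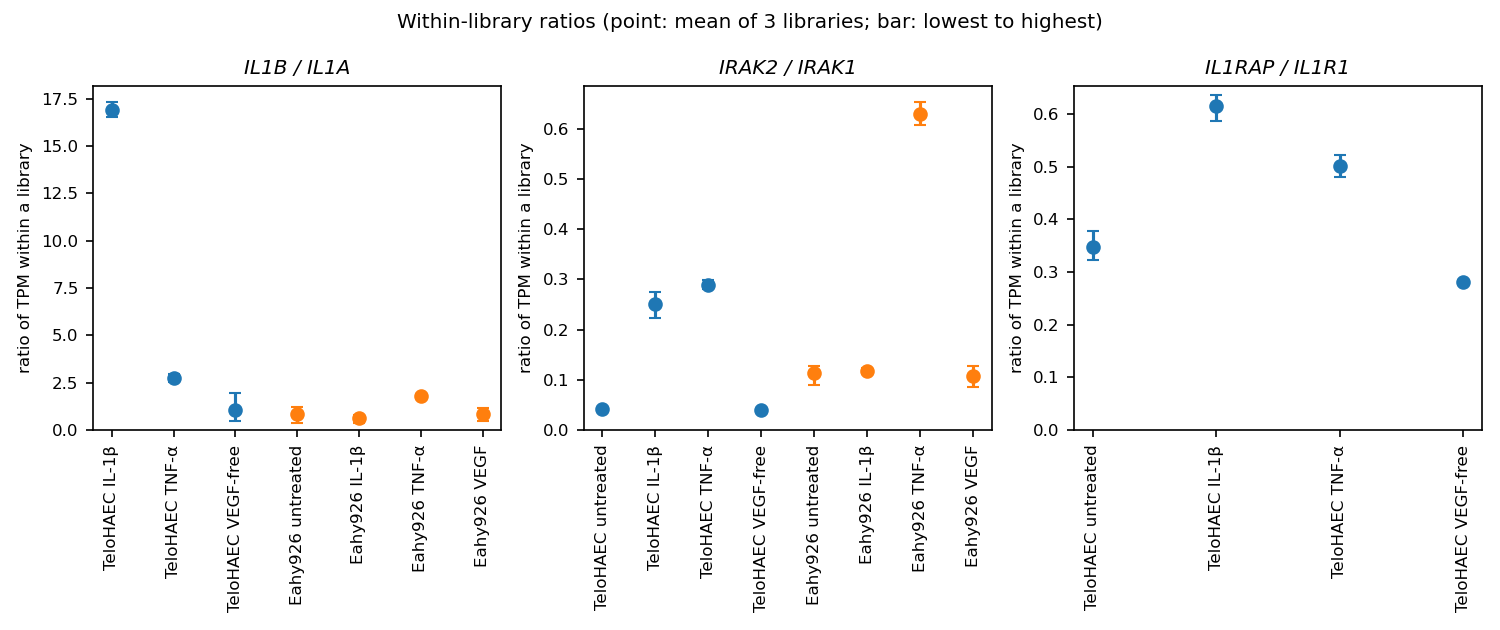
Ratios of TPM within a library in the parental groups (point: mean of 3 libraries, bar: lowest to highest), shown where the lower gene of the ratio had at least 0.2 TPM in every library of a group. The IL1B to IL1A ratio stands at 16.9 in TeloHAEC with IL-1β, against 2.75 with TNF-α and 1.78 in Eahy926 with TNF-α.

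In Eahy926 given IL-1β, the levels of the 10 genes stayed near those of untreated cells. By limma 0 of 10 passed, where 0.00738% of all genes passed. An unadjusted p under 0.05 was reached by 1 (IRAK1, 251 against 228 TPM, unadjusted p = 0.0243) and by 1542 of all 13542 genes. IL1B stood at 2.39, 1.42 and 2.70 TPM with IL-1β and 0.972, 2.87 and 3.67 TPM untreated, with a 95% interval of -0.61 to 0.46 log2 units for the difference. IL1A stood at 3.29, 3.64 and 3.40 against 2.76, 2.98 and 3.07 TPM (interval -0.08 to 0.43). IRAK2 stood at 28.6, 28.7 and 31.0 against 29.0, 18.2 and 31.0 TPM (interval -0.07 to 0.47). These intervals lie below the rises measured in TeloHAEC. IL1RAP, MYD88 and IRAK1 transcripts were present in these cells, at means of 5.05, 62.6 and 251 TPM with IL-1β.

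TNF-α did change the genes in Eahy926. IL1B reached 56.7, 58.3 and 59.5 TPM, IL1A 34.5, 30.6 and 33.0 TPM, and IRAK2 148, 149 and 147 TPM, each far above the untreated and the IL-1β libraries. The differences from untreated were 4.17 ± 0.255, 3.10 ± 0.124 and 2.50 ± 0.129 log2 units (adjusted p = 2.72e-11, 1.58e-14 and 1.41e-12). MYD88, the adaptor of the pathway, rose 2.01-fold, from 71.7, 54.7 and 66.3 to 136, 118 and 133 TPM (1.00 ± 0.0740 log2 units, adjusted p = 6.12e-10). IL18 fell by 0.79 log2 units (adjusted p = 0.000808), from 92.2, 119 and 109 to 61.4, 62.4 and 59.9 TPM. The untreated libraries 0.1 and 0.2 of Eahy926 held 73.0 and 74.4 TPM of IL18, and with them among the controls the call was lost (-0.58, adjusted p = 0.266). Of the 10 genes 5 passed, 4 higher and 1 lower, where 20.0% of all genes passed, with a median size of 0.43 against 0.13. The epithelial list summed to 2530 to 2672 TPM with TNF-α and 4095 to 4157 TPM untreated, and the leukocyte list to 287 to 321 against 211 to 247 TPM; their part in these results was not tested. Against TNF-α, IL-1β-treated Eahy926 differed in the same 5 genes (IL1A, IL1B, IRAK2 and MYD88 lower, IL18 higher), where 16.3% of all genes passed, and both comparisons share the TNF-α libraries. With VEGF in Eahy926, 0 of the 10 genes passed by limma, where 0.00738% of all genes passed. An unadjusted p under 0.05 was reached by 0 of the 10 and by 1180 of all 13542 genes.

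**Figure D3:**
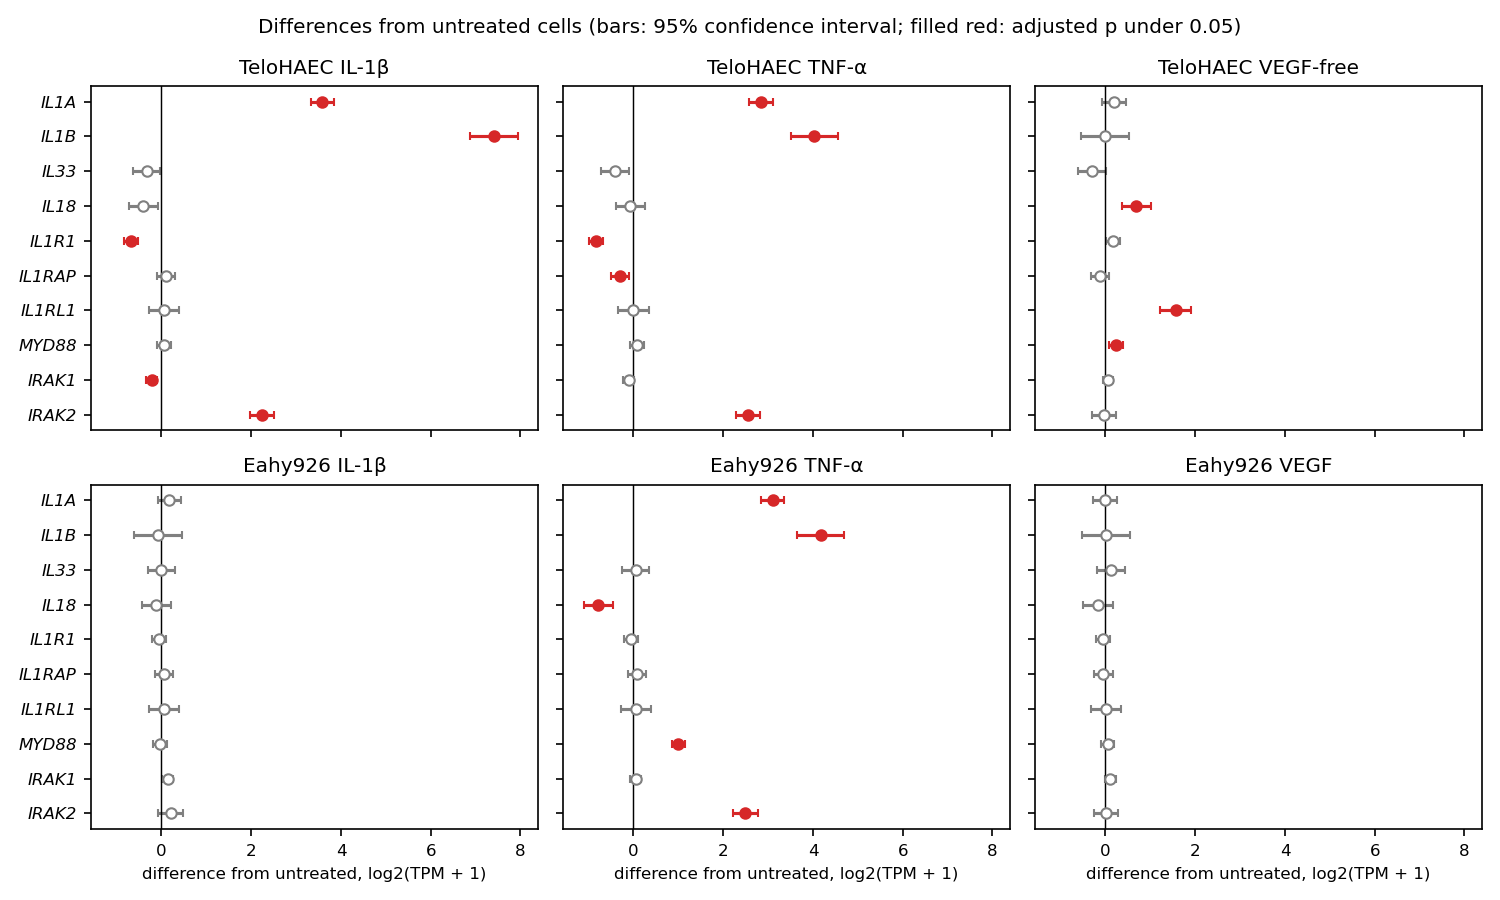
Difference of each gene from untreated cells in log2(TPM + 1) for 6 treatments, with 95% confidence intervals; filled red points passed and open grey points did not. With IL-1β the 3 rises in TeloHAEC have no counterpart in Eahy926, while TNF-α gave rises of IL1A, IL1B and IRAK2 in both lines.

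The difference between the lines was tested itself, as the response in TeloHAEC minus that in Eahy926. For IL-1β, 5 of 10 genes passed, where 22.5% of all genes passed: IL1B by 7.48 ± 0.361, IL1A by 3.41 ± 0.176 and IRAK2 by 2.03 ± 0.182 log2 units, IRAK1 by -0.36 and IL1R1 by -0.63. The IL1R1 value follows from a line in which the transcript was at or near 0 before treatment and could not fall, and with a pseudocount of 0.1 it did not pass (adjusted p = 0.390). For TNF-α, 3 of 10 genes passed, where 10.3% of all genes passed: MYD88 by -0.93 ± 0.105 (adjusted p = 1.51e-06), IL1R1 by -0.78 and IL18 by 0.71. The responses of IL1A, IL1B and IRAK2 to TNF-α differed between the lines by -0.26, -0.14 and 0.06 log2 units, with 95% intervals of -0.62 to 0.11, -0.89 to 0.62 and -0.32 to 0.44. The IL18 value (adjusted p = 0.0436) turned to -0.17 with all 5 controls of each line, and the IL1R1 value did not pass with a pseudocount of 0.1 (adjusted p = 0.276).

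Medium without VEGF moved other members of the family in TeloHAEC. IL1RL1, the receptor for IL-33, rose from 2.15, 2.76 and 2.26 to 7.70, 9.29 and 10.1 TPM, with no overlap (1.56 ± 0.162 log2 units, adjusted p = 1.17e-06), and with all 5 controls the rise was 1.21. IL18 was 2.22, 1.5 and 3.04 TPM against 0.866, 0.621 and 1.56 TPM, which overlapped and passed (0.69 ± 0.157, adjusted p = 0.00466). With all 5 controls that difference was 0.02 (adjusted p = 0.989), and with only the 2 groups in the fit its adjusted p was 0.131. MYD88 rose by 0.24 (adjusted p = 0.0343), from 71.2, 72.6 and 69.7 to 80.1, 88.9 and 83.9 TPM, and its adjusted p was 0.0595 to 0.146 when any of 5 of the 6 libraries was left out. IL1A, IL1B and IRAK2 had means of 0.629, 0.616 and 8.43 TPM, against 0.450, 0.636 and 8.69 TPM untreated, and did not pass. Of the 10 genes 3 passed, all higher, where 13.1% of all genes passed.

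Across the 8 parental groups the order of levels differed between the genes. IL1B was highest in TeloHAEC with IL-1β (272 TPM), then Eahy926 with TNF-α (58.2) and TeloHAEC with TNF-α (25.4), none of which overlapped its neighbour, followed by the other Eahy926 groups (2.17 to 2.50), which overlapped each other. IL1A and IRAK2 were instead highest in Eahy926 with TNF-α, at 32.7 and 148 TPM. For IL1R1 the order was TeloHAEC in medium without VEGF (26.4 TPM), untreated (23.4), with IL-1β (14.2) and with TNF-α (12.7), and the first pair overlapped. The group means of IRAK1 ran from 179 to 251 TPM.

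Over the 12 TeloHAEC parental libraries, the patterns most like IL1B were those of CXCL3 and PVR, and those most like IRAK2 were TNFAIP3 and RELB. Pearson's r of log2(TPM + 1) was 0.999, 0.995, 0.998 and 0.996, among 10476 genes with a group mean of at least 5 TPM. IL1A was most like DPYSL3 and TNIP3 (0.995 and 0.994), IL1R1 most like GLRX and SHE (0.987 and 0.983), and IL1RL1 most like FBXL5 and ACAD9 (0.978 and 0.972). IRAK1 was most like ZNF512B and CBX6 (0.969 and 0.953), IL1RAP most like SLC38A2 and HIGD2A (0.948 and 0.909), and MYD88 most like THUMPD3 and GPR161 (0.939 and 0.930). These are descriptions over libraries that share 4 treatments.

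The other genes of the pathway were read from lists written from general knowledge. The lists were chosen with earlier results of these data known, so their counts are descriptions. Of 16 genes known to be induced by IL-1 signalling, 16 rose in TeloHAEC with IL-1β and 16 with TNF-α, where 31.1% and 18.2% of all genes passed, with medians of 3.88 and 2.79 log2 units against -0.07 and -0.02 over all genes. The largest rises with IL-1β were CSF2, a myeloid growth factor (385 ± 7.87 TPM), CXCL2, a neutrophil chemokine (677 ± 3.75 TPM), and the adhesion molecule SELE (87.7 ± 7.54 TPM). In Eahy926, 15 of 16 rose with TNF-α, where 20.0% of all genes passed, with a median of 1.99, led by ICAM1 (235 ± 10.0 against 4.59 ± 0.461 TPM). With IL-1β in Eahy926, 0 of 16 passed by limma and 5 had an unadjusted p under 0.05, as had 1542 of 13542 genes in all, with a median of 0.04 against 0.04 over all genes. The differences farthest from 0, picked after their values were seen, were all higher: CXCL1 by 0.67, CXCL8 by 0.49, CXCL2 by 0.48 and ICAM1 by 0.31 log2 units, with adjusted p of 0.356 to 0.426. With VEGF in Eahy926, against the same untreated libraries, these genes were higher by 0.61, 0.22, 0.07 and 0.12 (adjusted p of 0.506 to 0.897). All 16 passed the test of a different IL-1β response between the lines, where 22.5% of all genes passed. SELE was listed at 0 in the untreated, IL-1β and TNF-α groups of Eahy926.

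**Figure D4:**
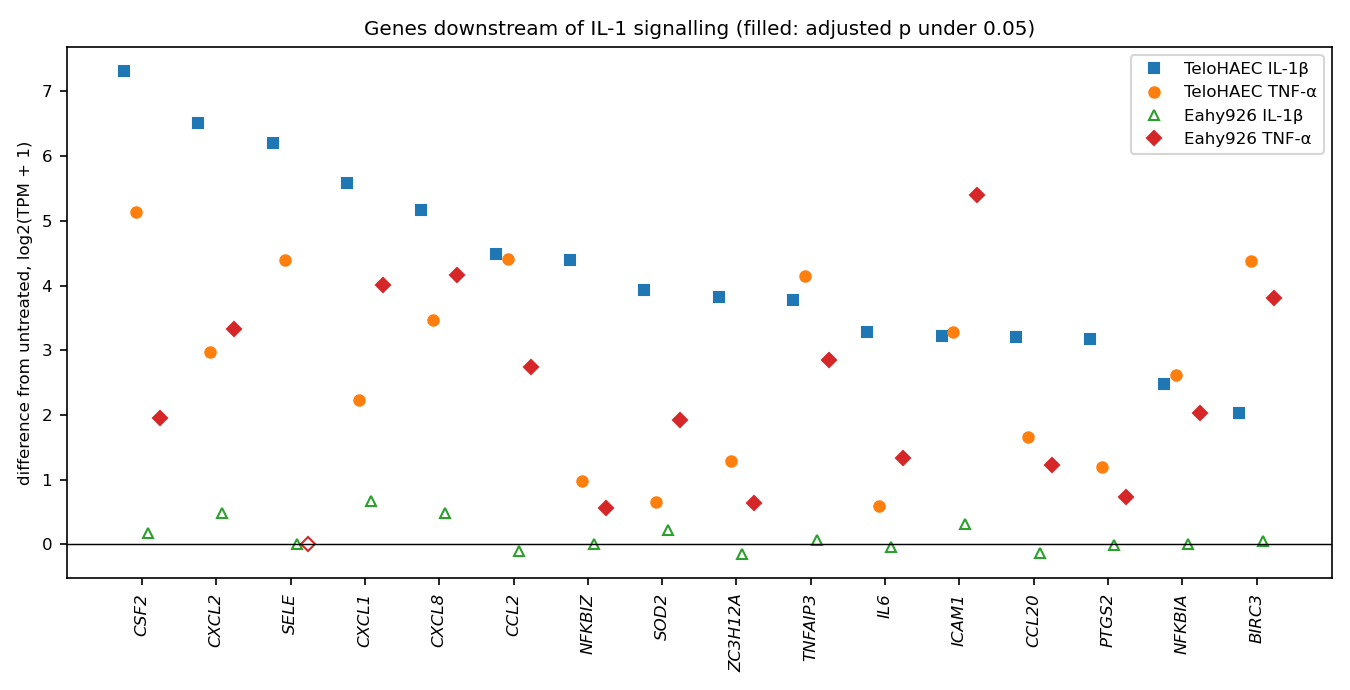
Difference from untreated cells, in log2(TPM + 1), of 16 genes known to be induced by IL-1 signalling, ordered by their rise in TeloHAEC with IL-1β. Filled symbols passed; the open triangles of Eahy926 with IL-1β lie between -0.15 and 0.67, while 15 of 16 diamonds of Eahy926 with TNF-α are filled.

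Of 7 other receptors of the family 3 were measured above the filter in the parental lines. In TeloHAEC 1 rose and 2 fell with each cytokine (medians -0.48 and -0.21), where 31.1% and 18.2% of all genes passed. IL1RAPL1, low in untreated cells, fell from 1.11 ± 0.159 to 0.392 ± 0.164 TPM with IL-1β and 0.429 ± 0.270 TPM with TNF-α. IL18R1, the IL-18 receptor chain, went from 0.943 ± 0.271 to 2.82 ± 0.546 TPM with IL-1β and to 2.40 ± 0.226 TPM with TNF-α, and SIGIRR, an inhibitory receptor, fell from 61.3 ± 5.66 to 43.9 ± 5.34 and 52.7 ± 0.859 TPM. Of 18 other signalling proteins 2 rose and 4 fell with IL-1β (median -0.03), and 1 rose and 4 fell with TNF-α (median -0.05), where 31.1% and 18.2% of all genes passed. IRAK3, an inhibitory IRAK, was 5.13 ± 0.441 TPM with IL-1β, 2.24 ± 0.360 TPM with TNF-α and 3.03 ± 0.468 TPM untreated, and was higher with IL-1β than with TNF-α (0.92 log2 units, adjusted p = 1.22e-06). It was listed at 0 in untreated Eahy926. Of 15 genes of ligand maturation and release 13 passed the filter, and 4 rose and 4 fell with IL-1β (median 0.05), where 31.1% of all genes passed. CASP1, the protease that matures IL-1β and IL-18, rose from 3.85 ± 0.708 to 8.18 ± 0.761 TPM there and from 29.9 ± 1.85 to 53.4 ± 4.87 TPM with TNF-α in Eahy926.

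In the CRISPRi cells, 7 of the 10 genes passed the filter, and the other members were low. IL1B was listed at 0 in all 4 non-targeting libraries and reached at most 1.23 TPM, IL18 at most 0.594 TPM and IL1RL1 at most 0.573 TPM. The targets include CCM2, PDCD10 and ITGB1BP1, which belong to or bind the cerebral cavernous malformation (CCM) complex, and MAP3K3, MAP2K5, MEF2A and KLF2, of the kinase cascade that this complex restrains. MESDC1 (listed as TLNRD1 in these columns), CDH5, the endothelial cadherin, and NFAT5, an osmotic stress factor, were also targeted. The knockdowns share the 4 non-targeting libraries as controls.

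IL1R1 was the member that moved most. It stood at 14.1, 17.9, 16.1 and 13.0 TPM in the non-targeting libraries and at 38.2 and 52.1 TPM with the guides against CCM2, 2.96 times as high (1.5 ± 0.235 log2 units, adjusted p = 0.000478), and it passed with each library left out in turn. This was 1 of 7 genes, where 14.0% of all genes passed. With the guides against MESDC1 it stood at 33.8 and 31.0 TPM, also above every control (1.05 ± 0.235), with an adjusted p of 0.0532. With those guides 0 of 7 passed by limma, where 0.552% of all genes passed. An unadjusted p under 0.05 was reached by 1 of the 7 and by 1463 of all 14143 genes. IL1R1 passed there under 4 alternatives, with adjusted p of 0.0206 to 0.0444, and missed under others. With the guides against ITGB1BP1 it stood at 23.1 and 19.8 TPM, also above every control, and did not pass (adjusted p = 0.245). With those against PDCD10 it stood at 9.44 and 15.9 TPM.

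The epithelial list was higher with the guides against CCM2, MESDC1, ITGB1BP1 and PDCD10 than in the non-targeting libraries. The list, of which KRT7, KRT8, KRT18 and KRT19 reached 1 TPM, summed to 5402 to 6506 TPM with CCM2 guides, 2492 to 2651 with MESDC1 guides and 1209 to 1393 in the non-targeting libraries. With ITGB1BP1 guides it summed to 2936 to 3266 TPM, and with PDCD10 guides to 2631 to 6818 TPM. The leukocyte list, of which CD14, FCER1G, CD68 and LAPTM5 of 12 reached 1 TPM and TYROBP was listed at 0, summed to 270 to 347 TPM with CCM2 guides and 205 to 219 TPM in the controls. The part of these lists in the IL1R1 values was not tested. The patterns most like IL1R1 over the 24 CRISPRi libraries were NTS and CALCRL (r = 0.950 and 0.929, among 10515 genes). Those most like IRAK2 were PNRC1 and GAMT (0.881 and 0.799), and those most like IRAK1 were MRPL12 and ETFRF1 (0.838 and 0.835). For IL1RAP they were UQCRQ and PSMA7 (0.786 and 0.771), and for MYD88 CBX6 and FKBP9 (0.727 and 0.694).

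IRAK1 was lower with both guides against ITGB1BP1, at 122 and 110 TPM against 169, 175, 185 and 184 TPM (-0.61 ± 0.168 log2 units, adjusted p = 0.0325). This was the 1 of 7 genes that passed, where 7.70% of all genes passed, and the call was lost when any of the 6 libraries was left out (adjusted p = 0.0514 to 0.212). The epithelial list summed to 2936 to 3266 TPM with these guides, and its part was not tested. With the guides against PDCD10, IRAK2 stood at 3.88 and 9.15 TPM against 7.65 to 9.46 TPM, and the target was at 12.9% and 40.9% of the control mean. No member passed over both guides (0 of 7 by limma), where 7.04% of all genes passed. An unadjusted p under 0.05 was reached by 2 of the 7 and by 3447 of all 14143 genes. Without the second guide, IRAK2 alone passed (-0.92, adjusted p = 0.00714). The remaining library is then assumed to vary like the other groups.

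IL1A was near 0 in the controls, at 0.263, 0.133, 0.147 and 0.137 TPM, and its values with guides against the kinase cascade were above them in all but 1 library. So were those of 1 CDH5 guide (0.546 TPM) and of the NFAT5 guide that reduced its target (0.591 TPM). With the NFAT5 guide that did not reduce it, IL1A was 0.138 TPM. IL1A stood at 1.79 and 1.03 TPM with MAP3K3 guides (1.03 ± 0.348 log2 units, unadjusted p = 0.00875). It stood at 2.15 and 0.311 TPM with MEF2A guides and at 1.26 and 0.753 TPM with KLF2 guides. With MAP2K5 guides it stood at 2.36 TPM where the target was reduced and 0.255 TPM where it was not. It was 0.0702 and 0.0670 TPM with CCM2 guides and listed at 0 with both PDCD10 guides. None of these differences passed. By limma 0 of 7 genes passed with the guides against MAP3K3, MAP2K5, MEF2A and KLF2, where 0.0566%, 0.00%, 0.00707% and 0.0141% of all genes passed. In that order 2, 1, 1 and 1 of the 7 had an unadjusted p under 0.05, beside 1018, 550, 885 and 601 of all 14143 genes. With CDH5 and NFAT5 guides 0 of 7 passed, where 0.0141% and 0.00707% of all genes passed. There 0 of the 7 had an unadjusted p under 0.05, beside 402 and 273 of all genes. In the MAP2K5 and NFAT5 groups 1 guide left its target unreduced, so their counts do not describe replicated knockdowns.

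**Figure D5:**
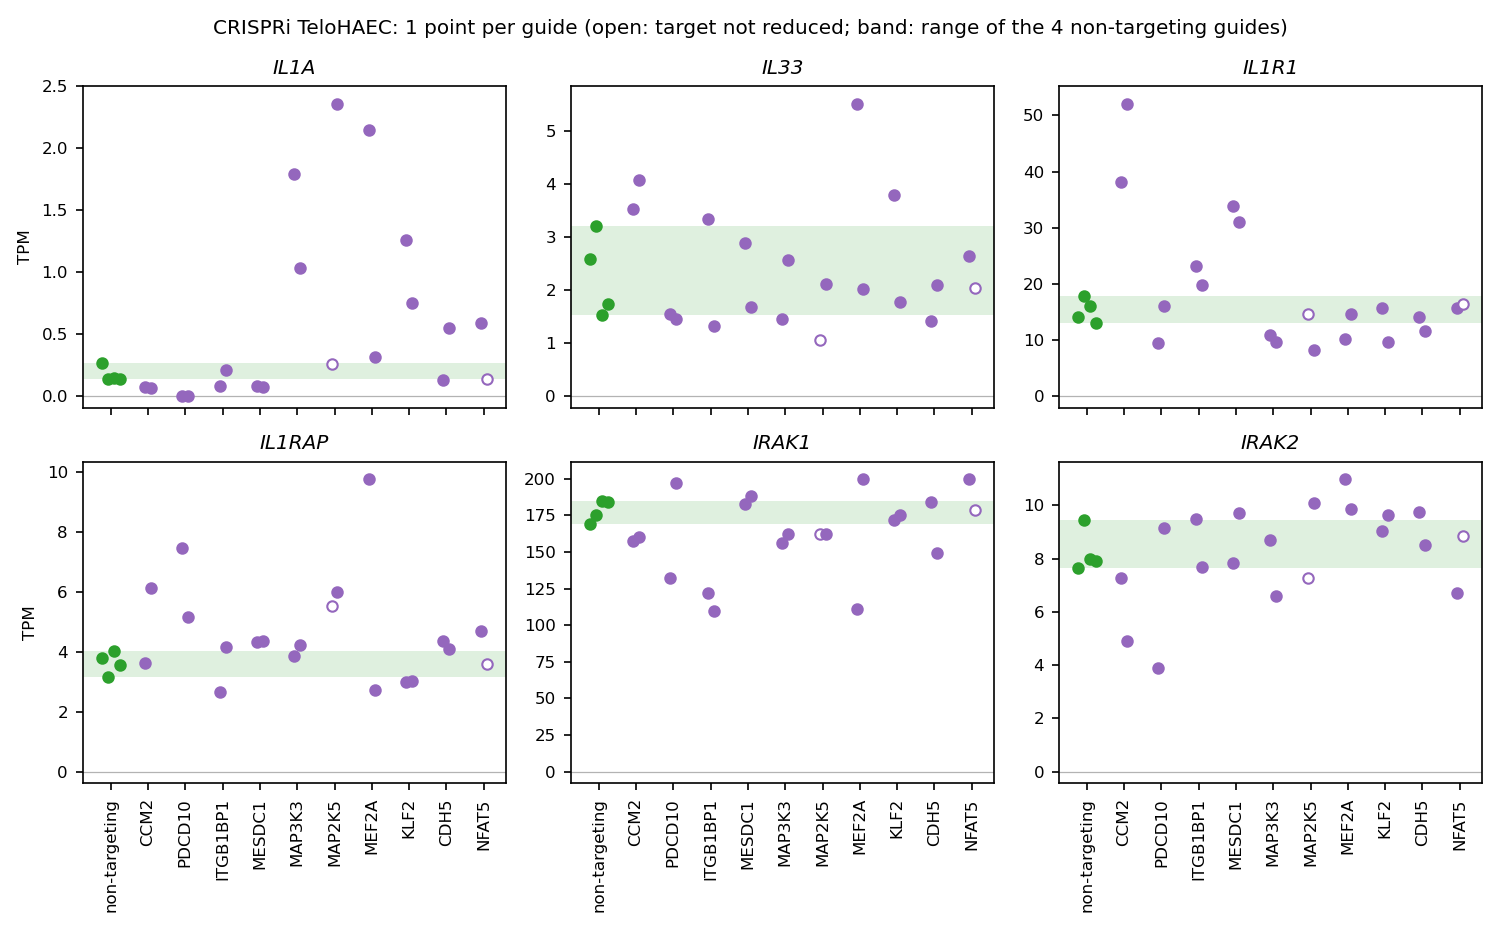
TPM of 6 of the genes in the CRISPRi libraries, 1 point per guide; the green band spans the 4 non-targeting guides, and open points are guides whose target was not reduced. Both guides against each of CCM2, MESDC1 and ITGB1BP1 lie above the band for IL1R1. For IRAK1 both guides against ITGB1BP1 lie below it, as do those against CCM2, MAP2K5 and MAP3K3.

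IL33, MYD88 and IL1RAP did not pass in any knockdown. IL33 ranged from 1.05 to 5.51 TPM over the 24 libraries, and MYD88 from 23.6 to 36.2 TPM, both lowest values of MYD88 being those of the PDCD10 guides (24.8 and 23.6 TPM, adjusted p = 0.112). IL1RAP ranged from 2.68 to 9.77 TPM, and the guides against MEF2A gave both its highest and its second lowest value, at 9.77 and 2.74 TPM. Both guides reduced MEF2A, to 3.61% and 13.2% of the control mean. With the second guide left out IL1RAP and IRAK1 passed (1.22 and -0.67, adjusted p = 0.0152 and 0.0319), on 1 library whose spread was taken from the other groups, while the guide left out had the opposite direction for IL1RAP. Of the 14 induced genes above the filter 3 rose and 1 fell with CCM2 guides, where 14.0% of all genes passed, with ICAM1 at 265 ± 35.3 against 120 ± 2.80 TPM and CCL2, a monocyte chemokine, at 32.5 ± 10.5 against 87.3 ± 13.7 TPM. IL18BP, the antagonist of IL-18, rose to 46.1 ± 1.92 from 23.7 ± 1.02 TPM with the same guides.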

How the data were processed

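The authors deposited 1 table of TPM per gene symbol for 52 libraries, per the file headers, the source of every level in the text. Bowtie2, kallisto and hg19 are named per the submitters' processing notes; versions and roles are not given in the sources used here. Values for parental and CRISPRi libraries cover different symbol sets (27311 and 35587) and were not compared with each other. TPM keep no read counts, so the depth is unknown and no count test was run. TPM are shares, so a rise of abundant genes lowers the others.

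Genes had to reach 1 TPM in 3 or more parental libraries, or in 2 or more CRISPRi libraries (13542 and 14143 genes). Values were turned into log2(TPM + 1) and fitted once per set with limma 3.58.1 (trend, empirical Bayes, two-sided) in R 4.3.3, with 8 groups over 24 parental and 11 groups over 24 CRISPRi libraries. Differences on this scale understate the change of low genes. P-values were adjusted by Benjamini-Hochberg over all genes of a fit for each of 21 comparisons. Libraries were grouped by the labels. Untreated libraries 0.1 and 0.2 stayed outside the fit, except in 1 alternative.

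The 10 genes, the pathway and marker lists and the rule for named genes were chosen with earlier results of these data known. The rule named all 10 genes, up to 3 passed genes per pathway list and parental comparison (2 in a knockdown) with the largest differences, and the 2 genes most correlated with each member of at least 5 TPM. IRAK3, CASP1, SIGIRR, IL18R1 and IL1RAPL1 met it. PTPRC, EMCN, CLDN5, TYROBP and CD3E are markers. GSDME is DFNA5 in the parental columns, and MESDC1 is TLNRD1 in the CRISPRi columns. Replicate numbers of a line did not pair libraries (mean residual r of same-numbered libraries -0.000780 and 0.0125, with 0 of 18 pairs above 0.1 in each line). Alternatives were no filter, a 5 TPM filter, a pseudocount of 0.1, quantile normalisation, the median of ratios, robust empirical Bayes, a fit of the compared groups alone, all 5 controls, the replicate block, leaving out each library, and dropping the guides whose target was not reduced. The fit was tested on simulated data. Promoter sequences are RefSeq's on GRCh38.p14, matched by symbol. Figures were drawn with matplotlib 3.10.9, and tables made with numpy 2.4.6 and pandas 2.3.3 under Python 3.11.15.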

Additional observations from a re-analysis of the deposited data

Results flagged for a closer look

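The response to IL-1β differed between the lines, by the test of the difference, for 5 genes: IL1B (7.48 log2 units, TeloHAEC minus Eahy926), IL1A (3.41), IRAK2 (2.03), IL1R1 (-0.63) and IRAK1 (-0.36). The response to TNF-α differed for IL18 (0.71), IL1R1 (-0.78) and MYD88 (-0.93). IL1R1 lay at 0 to 0.0823 TPM in Eahy926, so its values describe TeloHAEC.

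In TeloHAEC, both untreated libraries numbered 0.1 and 0.2 lay above every untreated library of the comparisons by over 0.5 log2 units for 4 of the 10 genes. Their means were 17.0 TPM for IL33, 5.32 TPM for IL18, 39.6 TPM for IL1R1 and 5.21 TPM for IL1RL1. In Eahy926 no gene was higher by that much, but both such libraries lay below every untreated library of the comparisons for IL1B (0.418 and 0.375 against 0.972, 2.87 and 3.67 TPM) and IL18 (73.0 and 74.4 against 92.2, 119 and 109 TPM), and above them for IRAK2 (34.1 and 33.9 against 29.0, 18.2 and 31.0 TPM). The labels give these libraries other numbers and name no other difference, and what sets them apart was not tested.

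Among the 4 non-targeting libraries, 1 stood apart for IL1A, at 0.263 TPM against 0.133 to 0.147 TPM. Chance flags about 1 in 20 such groups, and 10 were looked at.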

How the results depend on the processing

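The calls of IL1A, IL1B, IRAK2 and IL1R1 against untreated TeloHAEC, of IL1A, IL1B, IRAK2 and MYD88 with TNF-α in Eahy926, and of IL1R1 with CCM2 guides kept their direction and side of the threshold under every alternative run. The number of members that passed for the TNF-α response difference fell from 3 to 1 with a pseudocount of 0.1, and IL18 there turned to -0.17 with all 5 controls. With ITGB1BP1 guides it fell from 1 to 0 with no filter, with the median of ratios and with each library left out (range 0 to 0). With MESDC1 guides it rose from 0 to 1 (IL1R1) at 5 TPM or more, with the median of ratios, with quantile normalisation and with only the groups compared. Leaving out a library gave 0 to 2 with MEF2A guides and 0 to 1 with PDCD10 guides. The cause of these shifts was not tested. The replicate block changed 1 call, IRAK1 between the untreated lines (adjusted p = 0.0673), and so 8 members passed there instead of 9. Over all genes, only the groups compared gave 819 instead of 2706 calls for TNF-α in Eahy926, 856 instead of 1396 for the TNF-α response difference (884 with all 5 controls), 4 instead of 996 for PDCD10 (537 with no filter), 1825 instead of 1089 for ITGB1BP1 236 instead of 78 for MESDC1, 42 instead of 8 for MAP3K3 and 23 instead of 2 for KLF2. The other comparisons with 0 to 2 calls over all genes had 0 to 14 under every alternative that keeps all libraries. The median of ratios moved the median of all genes by 0.11 log2 units in the IL-1β response difference and 0.10 with PDCD10 guides. With it the share of calls that were higher went from 31.8 to 47.9% for IL-1β in TeloHAEC, 69.3 to 50.6% for medium without VEGF, 62.7 to 49.7% for TNF-α in Eahy926, 27.6 to 43.7% for IL-1β against TNF-α, 26.5 to 48.4% and 31.6 to 44.5% for the response differences, and 40.3 to 61.6%, 43.3 to 62.9% and 35.4 to 62.5% with CCM2, ITGB1BP1 and PDCD10 guides.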
